A study of Mus musculus with 12 samples.

Results

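Complex I (NADH:ubiquinone oxidoreductase) is the largest enzyme of the mitochondrial respiratory chain, and most of the genes that build it carry symbols that begin with Nduf. These genes were read from libraries of primary mouse adult fibroblasts (MAFs) treated with thymol, a phenolic monoterpene of thyme, or with its solvent DMSO. The symbols beginning with Nduf gave 47 of the 10697 genes in the table. They split into 39 genes named as subunits and 8 genes whose symbols begin with Ndufaf, which encode assembly factors that help to build the enzyme without staying in it. Neither set was chosen by its response to thymol.

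The MAFs were grown out of biopsies of wild-type (WT) C57BL6/j mice, and the labels give no animal age beyond adult. The Thymol100 group held 6 libraries of cells given 100 µM thymol for 24 h, and the DMSO group held 6 libraries of cells given the same volume of DMSO. Transcripts were read by QuantSeq 3′ mRNA sequencing, which yields about 1 read per transcript near its polyadenylated end, so that levels can be set side by side between genes without division by length. Nothing in the labels says whether the libraries of a group came from separate cultures or animals, so the p-values measure only the spread between these libraries, which may be technical. Levels are in log2 CPM, the log2 of reads scaled to a common library size by the authors, and a fold change is the mean thymol level minus the mean DMSO level on that log2 scale. Depth was between 5435985 and 9049796 reads per library. Of the fibroblast markers 18 of 20 could be read, at a median level in DMSO of 8.13 log2 CPM, but all 20 macrophage markers were present as well, at a median of 8.25, against 5.02 for all genes. Epithelial markers were absent (0 of 6), and 2 of 6 endothelial, 1 of 6 muscle and 1 of 6 adipocyte markers were listed.

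Complex I takes electrons from NADH, hands them along a chain of iron-sulfur clusters to ubiquinone, and uses the energy to pump protons across the inner mitochondrial membrane. The N module binds NADH, the Q module binds ubiquinone, and the membrane arm, which has a part near the Q module and a part far from it, does the pumping. A small set of core subunits carries out the chemistry, and accessory subunits surround and stabilise them. Core subunits of the membrane arm are encoded in mitochondrial DNA, whereas all Nduf genes are nuclear, and the proteins of those that encode one are imported.

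The region around the start site was one feature shared by some Nduf genes that the choice by symbol did not use. RefSeq promoters on GRCm38.p6, from 250 bases before to 50 bases after the start, were found for 41 of the 47 genes and searched on both strands. The letters AAGATGGC, the core of the binding motif of YY1, a factor known to act on genes of mitochondrial respiration, were present in 8 of 41 (19.5%), against 5.60% of 8529 promoters of genes in the table and 3.19% of all 27025. All 8 matches read in the direction of the gene and began between 11 and 39 bases after the start site. Of the 478 genes of the table with the motif, 234 (49%) had it in that orientation after the start. Among 32 promoters of nuclear genes for complexes II to V, 3 (9.38%) had the motif, and 1 had it in that orientation after the start. Stretches of 30 bases from 5 of these genes show the motif in its surroundings, with the YY1 letters in capitals. They lie at chr11:120098933-120098962 on the plus strand (Ndufaf8), chr10:80249462-80249491 plus (Ndufs7), chr6:126849097-126849126 minus (Ndufa9), chr3:51408915-51408944 minus (Ndufc1) and chr7:3617384-3617413 plus (Ndufa3).
Ndufaf8: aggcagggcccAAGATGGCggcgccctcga
Ndufs7: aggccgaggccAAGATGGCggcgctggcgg
Ndufa9: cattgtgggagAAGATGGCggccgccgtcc
Ndufc1: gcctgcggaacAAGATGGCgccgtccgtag
Ndufa3: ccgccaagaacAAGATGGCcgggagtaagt

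The letters CGCANGCG, the motif of NRF1, a regulator of nuclear genes for mitochondria, were found in 13 of the 41 promoters (31.7%), against 20.5% for genes in the table and 9.22% for all genes. Among 32 promoters of nuclear genes for complexes II to V, 17 (53.1%) had them. The reverse complement was searched too, and the form CGCATGCG reads the same on both strands. Stretches of 60 bases that end before the start site are shown for 3 genes, with the NRF1 letters in capitals: a Q module assembly factor, a proximal membrane arm subunit and the subunit with the lowest transcript level. They lie at chr4:24897945-24898004 plus (Ndufaf4), chr17:56717677-56717736 plus (Ndufa11) and chr4:123718250-123718309 minus (Ndufs5).
Ndufaf4: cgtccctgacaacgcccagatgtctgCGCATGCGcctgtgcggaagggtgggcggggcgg
Ndufa11: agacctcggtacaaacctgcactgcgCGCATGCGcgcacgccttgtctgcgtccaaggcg
Ndufs5: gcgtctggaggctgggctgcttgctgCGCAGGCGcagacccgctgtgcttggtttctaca

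The ETS letters CCGGAAG, searched on both strands, were present in 6 of 41 Nduf promoters (14.6%), against 21.6% of promoters of genes in the table and 9.93% of all promoters. These shares describe letters in a window and were not tested as binding. In GENCODE vM21, 21 of 45 protein-coding Nduf genes (46.7%) had the start of another protein-coding gene on the opposite strand within 1000 bases, against 16.9% of 10296 protein-coding genes of the table.

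Transcript levels of most subunits were above the median of all genes, over a wide range from 2.56 to 8.29 log2 CPM in DMSO. The median subunit level in DMSO was 6.69 log2 CPM, against 5.02 for all genes. By module, the medians were 6.66 for 10 N module genes, 5.81 for 6 Q module genes, 7.28 for 9 genes of the proximal membrane arm and 6.76 for 11 genes of the distal membrane arm. Ndufa2, a thioredoxin-like accessory subunit of the N module, had the highest level, and its DMSO libraries ran from 8.16 through a median of 8.30 to 8.39 log2 CPM, above 95.6% of all genes. Its next neighbours in DMSO were Ndufa3 at 7.62 ± 0.12, Ndufa7 at 7.55 ± 0.090 and Ndufa11 at 7.46 ± 0.089 (SD, n = 6 each). The mean of Ndufa7 lay within the SD of Ndufa3 and of Ndufa11, while the means of Ndufa3 and Ndufa11 differed by more than either SD. Single DMSO libraries of Ndufa3 and Ndufa11 overlapped, with the lowest of Ndufa3 at 7.47 and the highest of Ndufa11 at 7.62. Ndufa2 stood apart from all of these by more than their SD.

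The lowest subunit was Ndufs5, which sits on the intermembrane space side of the proximal membrane arm. Its level was 2.56 ± 0.33 log2 CPM in DMSO (SD, n = 6), from a mean of 40.0 reads per library, and it was followed by Ndufs6b at 2.83 ± 0.66, Ndufs3 at 3.96 ± 0.15, Ndufab1 at 4.88 ± 0.13 and Ndufb11 at 5.22 ± 0.21. The first pair of these overlapped in their spread. Ndufs6b is annotated as a processed pseudogene, and Ndufa4, although named as a complex I subunit, is now placed in complex IV; both stay in the set because it was drawn by symbol. The annotation also names Ndufa4l2 and a few Nduf pseudogenes, which were not analysed here.

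All 5 of these low subunits shared the end of their transcript with another annotated locus. The last 300 bases of each Nduf transcript were compared with all other GENCODE vM21 transcripts, and a match of at least 75 bases at 95% identity or more was found for 14 of the 47 genes. Ndufs3 matched Gm12251 over 300 bases at 99.7%, Ndufs5 matched BC002163 over 274 bases at 99.3%, Ndufab1 matched Ndufab1-ps over 232 bases at 99.6%, Ndufb11 matched Gm6444 over 207 bases at 98.1%, and Ndufs6b matched Ndufs6 over 300 bases at 97.0%. The 13 subunits with a match had a median level in DMSO of 6.40 log2 CPM, and the 26 without one had 6.73. Some reads from such ends may fit more than 1 gene, so the levels of these genes may be uncertain. How many reads could be placed at 1 gene only was not tested. These matches were noticed after the values were seen, and their part in the low levels was not tested.

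Assembly factor transcripts were scarcer than those of the subunits. Ndufaf8, the partner of Ndufaf5, was the highest at 6.22 ± 0.11 log2 CPM in DMSO (SD, n = 6). Ndufaf4 followed at 5.48 ± 0.25 and Ndufaf2 at 5.02 ± 0.18, and the mean of each differed from those of its neighbours by more than the SD. Single DMSO libraries of Ndufaf4 and Ndufaf2 overlapped, with the lowest of Ndufaf4 at 5.21 and the highest of Ndufaf2 at 5.30. Ndufaf3 stood at 4.12 ± 0.31, Ndufaf7 at 3.64 ± 0.23, Ndufaf5 at 3.48 ± 0.35, Ndufaf1 at 3.22 ± 0.44 and Ndufaf6 at 2.39 ± 0.60. Among these last 5, the mean of Ndufaf5 lay within the SD of Ndufaf7 and of Ndufaf1. The means of Ndufaf7 and Ndufaf1 differed by more than the SD of Ndufaf7 and by less than that of Ndufaf1. A median of 95 reads per library stood behind an assembly factor and 690 behind a subunit.

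**Figure D1:**
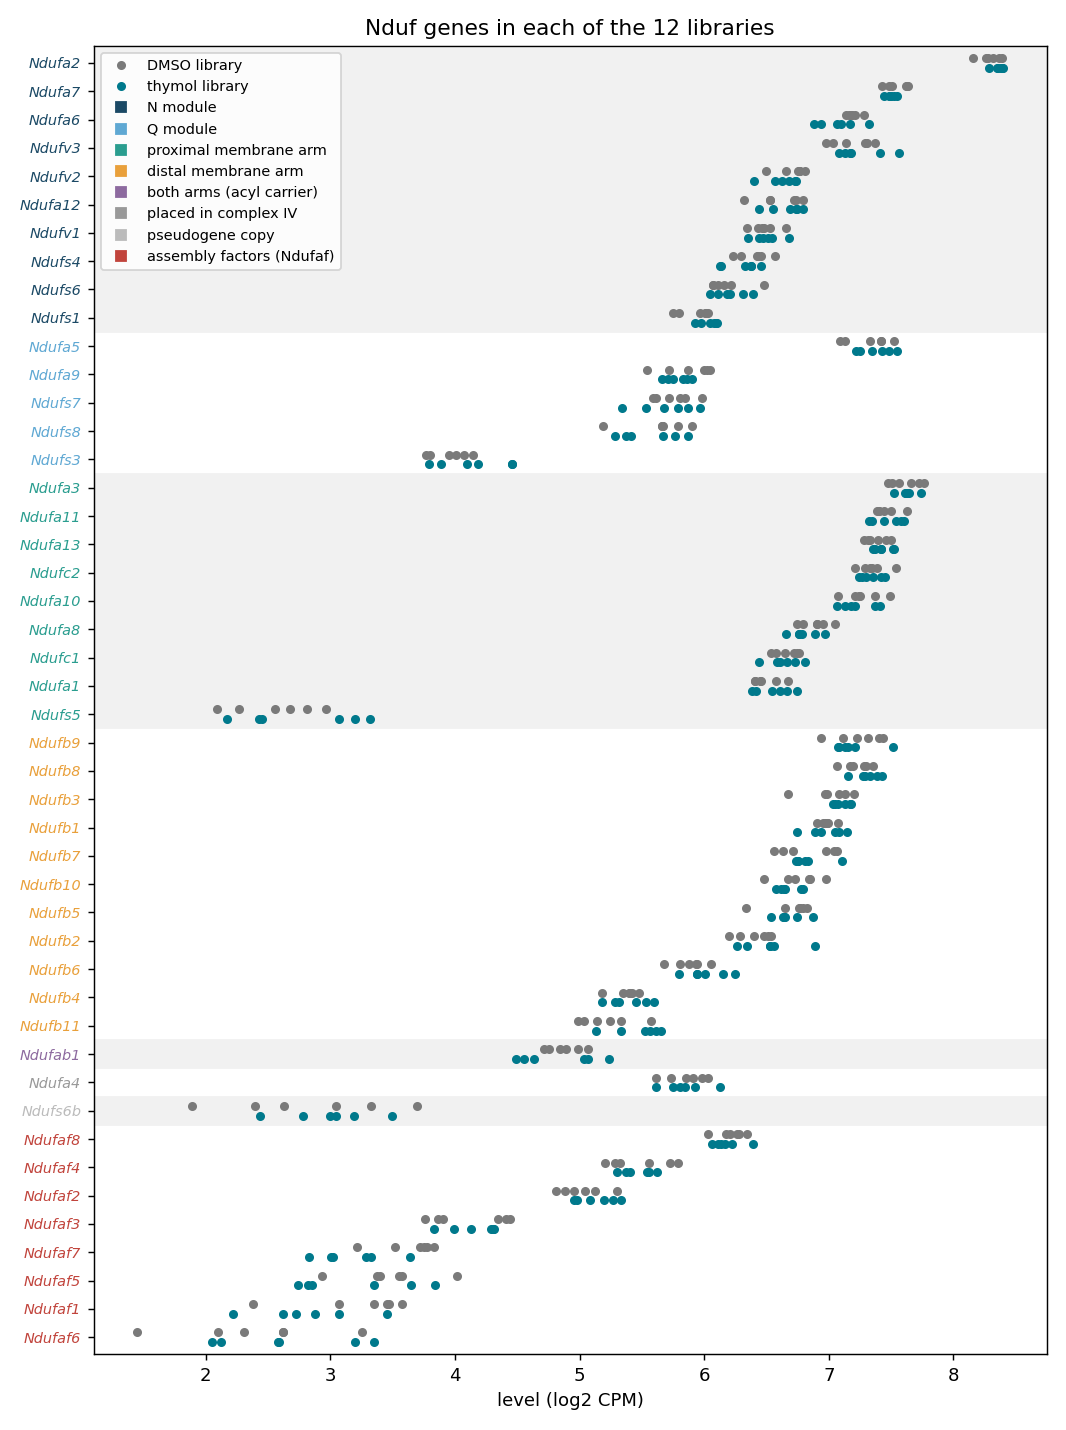
Level of each Nduf gene shown (log2 CPM, horizontal axis) in each of the 6 DMSO libraries (grey) and 6 thymol libraries (teal), with 1 row per gene, ordered by module and by level; the colour of a gene name gives its module. The grey and teal points overlap in every row, most subunits lie between about 5 and 8.4, and Ndufs5, Ndufs6b and several assembly factors lie lowest with the widest scatter.

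The main comparison asked whether 24 h of thymol changed transcripts for complex I. No Nduf gene passed the test: 0 of 47 had an adjusted p-value under 0.05 in limma, where 238 of 10697 genes (2.22%) passed. The same share of 47 genes would be 1.05 genes, so this count by itself does not set the Nduf genes apart from the rest. At an unadjusted p-value under 0.05 there were 2 Nduf genes (4.26%), against 11.8% of all genes, and limma's voom on the recovered reads likewise gave 0 past the adjusted threshold and 2 at the unadjusted one. The unadjusted count was 0 without DMSO replicate 2, 3 without thymol replicate 6, and 1 or 2 in the other fits that left out 1 library. The thymol and DMSO libraries overlapped for every Nduf gene (0 of 47 without overlap). Of all genes 1.68% showed no overlap, and the same share of 47 genes would be 0.79, so this count does not set them apart either.

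The subunit values lay on both sides of 0. Of the 39, 21 had a higher and 18 a lower mean with thymol, with a median log2 fold change of 0.013 against 0.0026 for all genes, and single values between -0.12 and 0.25. The mean over the 39 subunits was 6.38 ± 0.049 log2 CPM in DMSO and 6.40 ± 0.039 after thymol (n = 6 each, SD), a difference of 0.023 that was smaller than the spread in either group. The sign of the median rested on few libraries: it was -0.015 without DMSO replicate 6 and -0.0048 in the odd-numbered libraries alone. Fewer cells of a type and less RNA per cell cannot be told apart in such bulk samples. The mean of the fibroblast markers was 8.03 ± 0.039 in DMSO and 7.91 ± 0.036 with thymol, with 2 of 18 called lower, and that of the macrophage markers was 8.50 in both groups, with 1 of 20 called higher and 1 lower; their part in the values of the Nduf genes was not tested.

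Within each module the values were as small. The median log2 fold change was 0.021 for the N module, -0.015 for the Q module, 0.011 for the proximal and 0.020 for the distal membrane arm, with 6 of 10, 3 of 6, 5 of 9 and 6 of 11 genes higher. The 7 nuclear core subunits had 4 higher and 3 lower, with a median of 0.018, and 30 accessory subunits had 16 higher and 14 lower, with a median of 0.012. In all of these lists 0 genes passed the adjusted threshold in limma, and only Ndufb11, of the distal arm, had an unadjusted p-value under 0.05.

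**Figure D2:**
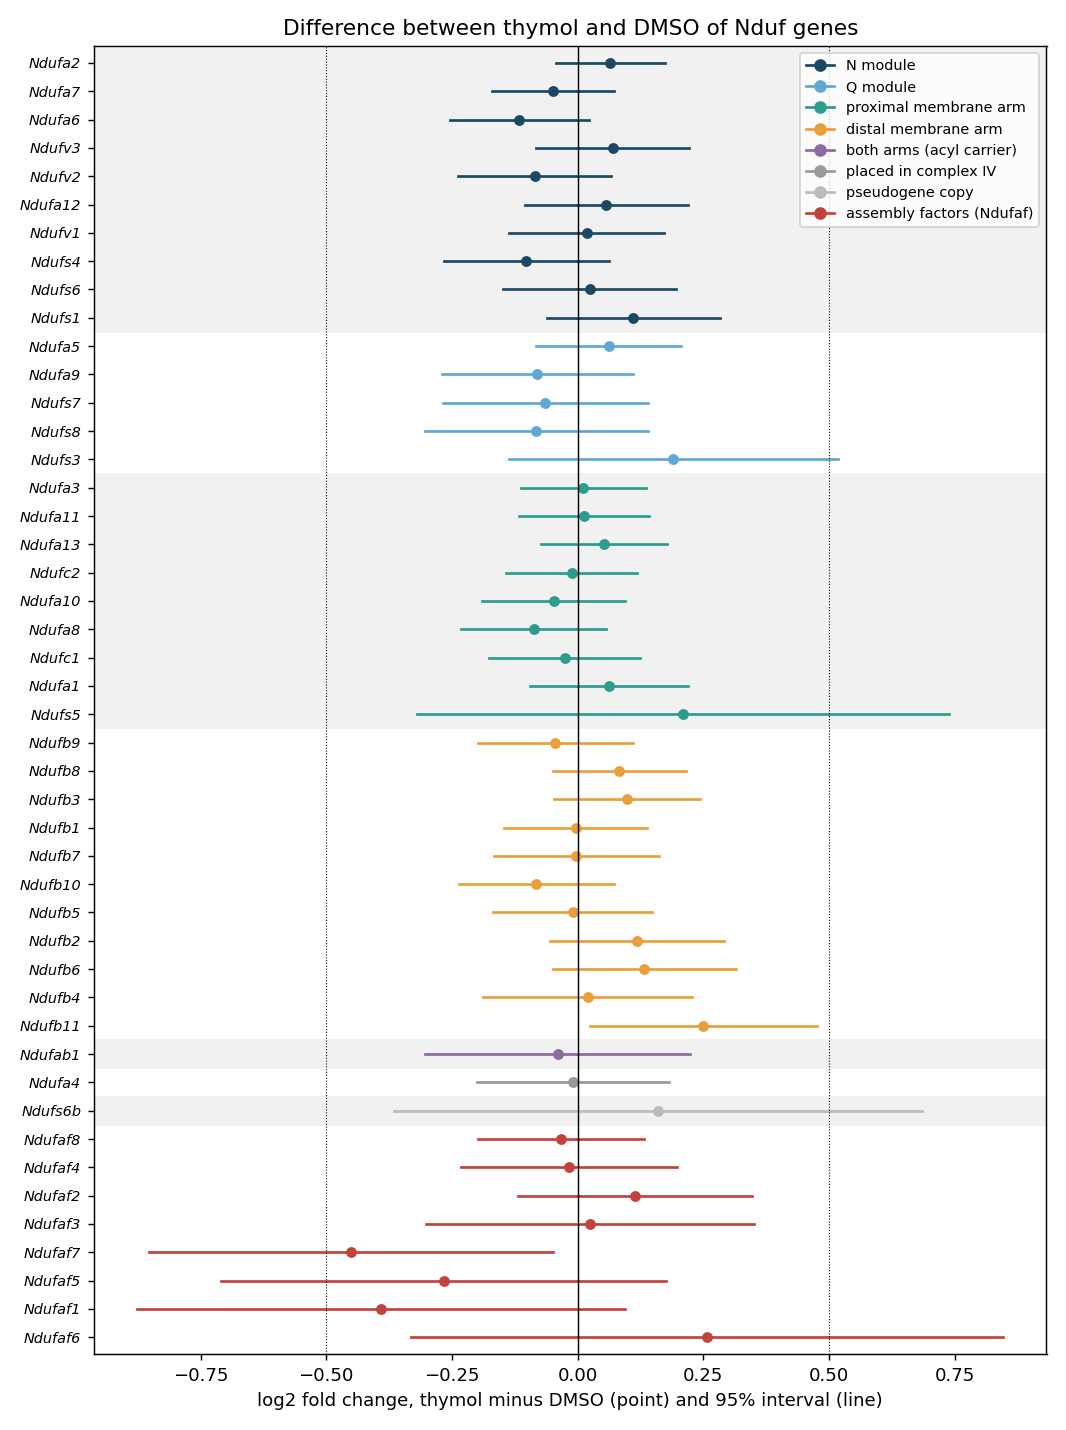
Log2 fold change (thymol minus DMSO, horizontal axis) of each Nduf gene shown with its 95% interval from limma, ordered as in the plot of levels and coloured by module. Dotted lines mark -0.5 and 0.5; the intervals of Ndufb11 and Ndufaf7 alone leave out 0, and those of the assembly factors Ndufaf1, Ndufaf5, Ndufaf6 and Ndufaf7 are among the widest.

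The width of the intervals differed between subunits and assembly factors. An interval gives the changes that the values allow, not the changes that the test would have called. The median level in DMSO was 6.69 log2 CPM for the subunits and 5.02 for all genes, which the shares below do not allow for. The 95% interval of the log2 fold change lay within -0.5 and 0.5, a change of 1.41-fold either way, for 36 of 39 subunits (92.3%), against 70.3% of all genes. Within the narrower bounds of -0.25 and 0.25 it lay for 26 subunits (66.7%), against 25.9% of all genes. For the assembly factors the same counts were 4 and 2 of 8. All 47 intervals lay within a log2 fold change of -1 and 1.

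These intervals are built from the spread between libraries. The SD within a group had a median of 0.14 log2 CPM over the subunits, from 0.066 for Ndufa2 to 0.53 for Ndufs6b, and of 0.26 over the assembly factors. It was a median of 2.27 times the SD that read counting alone would give for subunits and 2.10 times for assembly factors. In the middle range of subunit levels, 19 subunits between 5.87 and 7.21 log2 CPM had a median SD of 0.130, and 2180 genes in that range had 0.136.

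**Figure D3:**
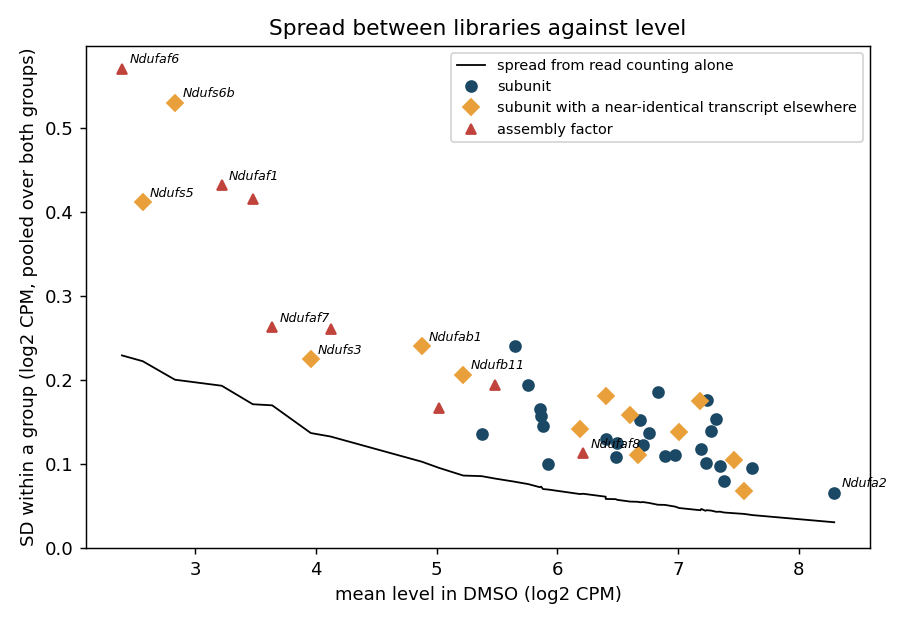
SD between libraries within a group (log2 CPM, pooled over both groups, vertical axis) against mean level in DMSO (log2 CPM, horizontal axis) for subunits (circles), subunits with a near-identical transcript elsewhere (diamonds) and assembly factors (triangles). The black line is the SD from read counting alone; every gene lies above it, and the SD falls from 0.57 at Ndufaf6 to 0.066 at Ndufa2.

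The core subunits of the NADH-binding end did not pass the test, and their groups overlapped. Ndufv1, which holds the flavin and the NADH site, ran from 6.34 through a median of 6.47 to 6.65 log2 CPM in DMSO and from 6.35 through 6.49 to 6.68 with thymol, which gave 0.018 ± 0.077 as log2 fold change (SE, adjusted p = 0.97 in limma). Ndufv2, an iron-sulfur subunit beside it, ran from 6.49 through 6.76 to 6.81 in DMSO and from 6.40 through 6.65 to 6.73 with thymol, which gave -0.085 ± 0.076 as log2 fold change (SE, adjusted p = 0.75 in limma). For Ndufv2, 0 of the 6 thymol libraries exceeded the DMSO median, although all but 1 lay within the DMSO range. Ndufs1, the large iron-sulfur subunit that carries electrons away from the flavin, ran from 5.75 through 5.99 to 6.03 in DMSO and from 5.92 through 6.06 to 6.10 with thymol. Of its 6 thymol libraries, 4 lay above all DMSO libraries, yet its log2 fold change of 0.11 ± 0.086 did not pass (SE, adjusted p = 0.70 in limma).

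The Q module core subunits described here did not pass either. Ndufs7, which holds the last iron-sulfur cluster before ubiquinone, had a log2 fold change of -0.064 (95% interval -0.27 to 0.14). Ndufs8, which holds iron-sulfur clusters on the path to ubiquinone, had -0.082 (-0.30 to 0.14), and its lowest library was DMSO replicate 6 at 5.19 log2 CPM. Ndufs3 (chr2:90894634-90904827, minus strand), a scaffold of the Q module, was the core subunit with the largest value. It ran from 3.77 through 3.98 to 4.15 log2 CPM in DMSO and from 3.79 through 4.14 to 4.46 with thymol, which gave 0.19 ± 0.16 as log2 fold change (SE, adjusted p = 0.74 in limma). Of its thymol libraries, 3 of 6 lay above all DMSO libraries, from means of 108 and 114 reads, and its exons overlap those of Kbtbd4 on the opposite strand.

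Among accessory subunits, the largest positive value was that of Ndufb11 (chrX:20615326-20617619, minus strand), an X-linked subunit of the distal membrane arm. It ran from 4.99 through a median of 5.19 to 5.57 log2 CPM in DMSO and from 5.13 through 5.54 to 5.65 with thymol. The groups overlapped, with 5 of 6 thymol libraries above the DMSO median and 2 above all DMSO libraries. Its log2 fold change was 0.25 ± 0.11 (SE), with a 95% interval of 0.025 to 0.48, an unadjusted p-value of 0.030 and an adjusted p-value of 0.34 in limma. This gene has exon overlap with Rbm10 on the opposite strand and a near-identical 3′ end at Gm6444, and whether the authors' counting used strand is not given in the sources used here.

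Ndufs5, the lowest subunit, had a log2 fold change of 0.21 with a wide 95% interval from -0.32 to 0.74 (limma adjusted p = 0.85). Its libraries ran from 2.10 through 2.62 to 2.97 log2 CPM in DMSO and from 2.18 through 2.76 to 3.32 with thymol, and 3 of 6 thymol libraries lay above all DMSO libraries. Ndufa2, the highest subunit, had 0.066 with an interval from -0.043 to 0.17 (adjusted p = 0.72), and 5 of its 6 thymol libraries were above the DMSO median. The interval of Ndufs5 was the widest and that of Ndufa2 the narrowest of the 39 subunits.

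The largest negative value among subunits was that of Ndufa6 (chr15:82350140-82354322, minus strand), which anchors an acyl carrier protein to the peripheral arm. It ran from 7.14 through 7.18 to 7.29 log2 CPM in DMSO and from 6.88 through 7.08 to 7.32 with thymol. Of the thymol libraries, 4 of 6 lay below all DMSO libraries, while replicate 1 lay above all of them. The log2 fold change was -0.12 ± 0.069 (SE, adjusted p = 0.55 in limma). The SD was 0.16 with thymol and 0.051 in DMSO (n = 6 each), and this difference in spread was not tested.

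Ndufs4, an accessory subunit of the N module whose loss is known to cause Leigh syndrome, had a log2 fold change of -0.10 (95% interval -0.27 to 0.062, limma adjusted p = 0.71). It ran from 6.23 through 6.43 to 6.57 log2 CPM in DMSO and from 6.12 through 6.35 to 6.46 with thymol. Ndufa8, on the intermembrane space side of the membrane arm, ran from 6.74 through 6.91 to 7.05 in DMSO and from 6.66 through 6.77 to 6.97 with thymol. Its log2 fold change was -0.087 (-0.23 to 0.058, adjusted p = 0.72). For each of these genes 1 of 6 thymol libraries was above the DMSO median, and the groups overlapped. The remaining subunits had log2 fold changes between -0.082 (Ndufb10) and 0.16 (Ndufs6b, the pseudogene).

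The assembly factors had the largest values among the Nduf genes, in both directions, and also the widest intervals. Their log2 fold changes ran from -0.45 to 0.26, 3 positive and 5 negative, with a median of -0.025. The mean over the 8 was 4.20 ± 0.15 log2 CPM in DMSO and 4.10 ± 0.065 after thymol (n = 6 each, SD), a difference of -0.095 that was smaller than the DMSO spread. DMSO replicate 6 held the highest mean over the assembly factors, 4.44, and the lowest mean over the subunits, 6.29. In that library 8 of 8 assembly factors lay above their mean over the 12 libraries and 25 of 39 subunits lay below theirs, and it was the lowest of the 12 for 9 subunits. Without it the median of the assembly factors was -0.0015.

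**Figure D4:**
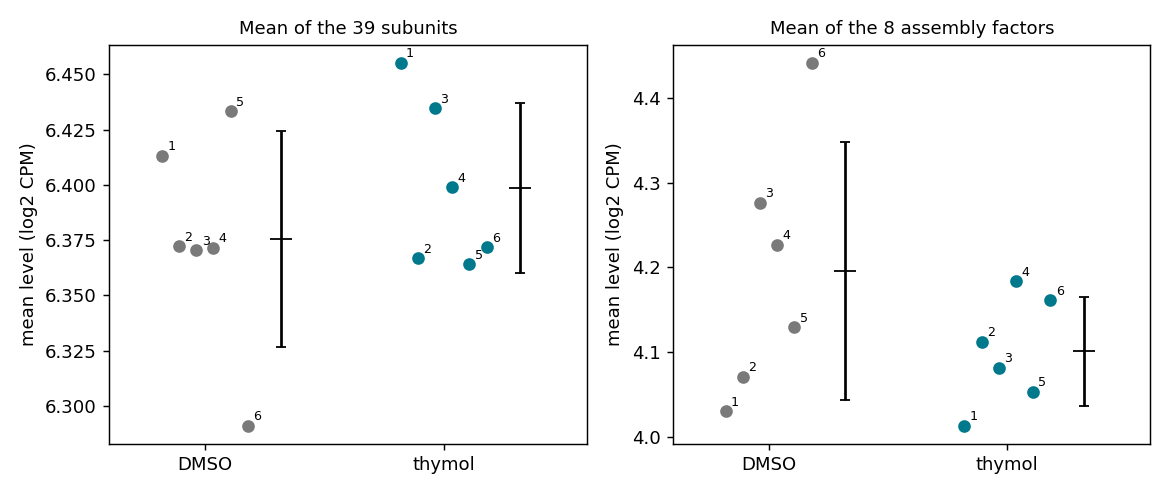
Mean level over the 39 subunits (left) and the 8 assembly factors (right) in each library (log2 CPM, vertical axes that do not start at 0), with the replicate number beside each point and the mean ± SD of 6 libraries beside each group. DMSO replicate 6 is the lowest point on the left at 6.29 and the highest on the right at 4.44, and the groups overlap in both panels.

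Ndufaf7 (chr17:78937136-78948052, plus strand), a methyltransferase that acts early in assembly, had the smallest p-value of all Nduf genes. Its libraries ran from 3.22 through a median of 3.74 to 3.83 log2 CPM in DMSO and from 2.83 through 3.16 to 3.64 with thymol. None of the 6 thymol libraries was above the DMSO median and 3 were below all DMSO libraries, but thymol replicate 3 reached 3.64, so the groups overlapped. The log2 fold change was -0.45 ± 0.20 (SE), with a 95% interval of -0.85 to -0.048, an unadjusted p-value of 0.029 and an adjusted p-value of 0.33 in limma. It rested on means of 86.7 reads in DMSO and 57.5 with thymol, and the end of the transcript had a near-identical match in 66 other genes, the longest over 165 bases at 95.2%.

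Ndufaf5, which hydroxylates an arginine of Ndufs7, also had a lower mean with thymol. It ran from 2.94 through 3.48 to 4.02 log2 CPM in DMSO and from 2.74 through 3.10 to 3.84 with thymol, which gave -0.27 ± 0.22 as log2 fold change (SE, adjusted p = 0.72 in limma). Its partner Ndufaf8 ran from 6.03 through 6.24 to 6.34 in DMSO and from 6.07 through 6.15 to 6.39 with thymol, which gave -0.033 ± 0.083 as log2 fold change (SE, adjusted p = 0.95 in limma). The value of Ndufaf5 thus had a far wider interval, -0.71 to 0.18, than that of Ndufaf8, -0.20 to 0.13.

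Ndufaf3 and Ndufaf4, which bind each other and take part in building the Q module, were close to 0. Ndufaf3 ran from 3.76 through 4.12 to 4.44 log2 CPM in DMSO and from 3.84 through 4.21 to 4.32 with thymol, a log2 fold change of 0.025 (95% interval -0.30 to 0.35). Ndufaf4 ran from 5.21 through 5.44 to 5.79 in DMSO and from 5.30 through 5.47 to 5.62 with thymol, a log2 fold change of -0.017 (-0.23 to 0.20). The thymol libraries of both lay inside the range of the DMSO libraries, and limma's adjusted p-value was 0.98 for each. Ndufaf6, which also takes part in Q module assembly, had 0.26 ± 0.29 (SE, adjusted p = 0.83 in limma) from means of 38.0 and 41.2 reads, with DMSO libraries from 1.45 through 2.46 to 3.25 and thymol libraries from 2.05 through 2.59 to 3.35 log2 CPM. Single libraries moved this value: it was 0.070 when DMSO replicate 2 was left out, 0.43 when DMSO replicate 6 was, 0.12 when thymol replicate 4 was and 0.15 when thymol replicate 3 was.

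Ndufaf1 (chr2:119655446-119662827, minus strand) works on the membrane arm as part of a complex of assembly factors. It ran from 2.38 through 3.41 to 3.58 log2 CPM in DMSO and from 2.22 through 2.80 to 3.45 with thymol, with 1 of 6 thymol libraries above the DMSO median. The log2 fold change was -0.39 ± 0.24 (SE), with a 95% interval of -0.88 to 0.095 and an adjusted p-value of 0.57 in limma, from means of 66.0 and 45.5 reads. DMSO replicate 1 was the one low DMSO library, and without it the value was -0.56. Ndufaf2, a relative of the subunit Ndufa12 that acts late, when the N module is added, had 0.11 ± 0.12 (SE, adjusted p = 0.79 in limma), with DMSO libraries from 4.81 through 5.00 to 5.30 and thymol libraries from 4.96 through 5.14 to 5.33 log2 CPM.

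**Figure D5:**
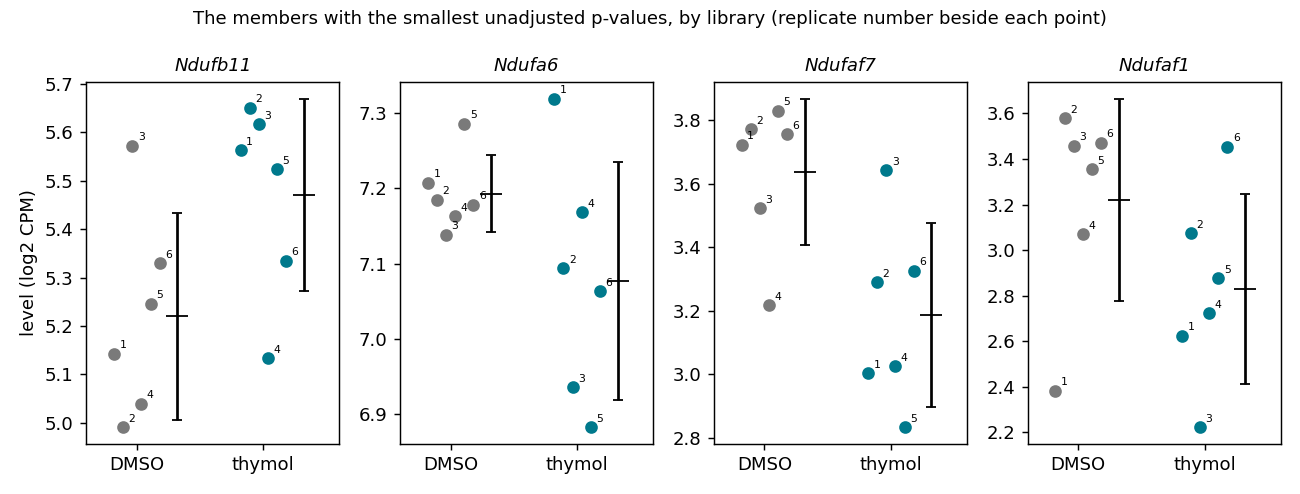
Level of the 4 Nduf genes with the smallest unadjusted p-values, Ndufb11, Ndufa6, Ndufaf7 and Ndufaf1, in each library (log2 CPM, vertical axes that differ between panels and do not start at 0), with the replicate number beside each point and the mean ± SD of 6 libraries beside each group. The groups overlap in every panel; for Ndufaf7 every thymol point is under the DMSO median of 3.74.

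Other genes of the pathway, which do not carry Nduf symbols, were read from the same fit. Of 13 further assembly factors 11 were in the table, 3 with a higher and 8 with a lower mean, and 0 passed the adjusted threshold in limma, with 0 at an unadjusted p-value under 0.05; their median log2 fold change was -0.069. Of 40 nuclear genes for complexes II to V, 28 had a higher and 12 a lower mean, with a median of 0.022, 0 past the adjusted threshold and 1 at the unadjusted one. Of 10 regulators of mitochondrial biogenesis, 5 were higher and 5 lower, with 0 at either threshold. Among these, Yy1 stood at a log2 fold change of 0.13 and Nrf1 at 0.12, with limma adjusted p-values of 0.52 and 0.81.

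The core subunits encoded in mitochondrial DNA gave the smallest p-values among genes for complex I. Of 7 such genes 5 were in the table, and 0 passed the adjusted threshold in limma while 3 had an unadjusted p-value under 0.05. The mean of mt-Nd2 was 12.59 ± 0.16 log2 CPM in DMSO and 12.73 ± 0.095 after thymol (n = 6 each, SD), and those of mt-Nd5 were 10.07 ± 0.10 and 10.20 ± 0.12. For both, 6 of 6 thymol libraries lay above the DMSO median, with limma adjusted p-values of 0.21 and 0.24. The log2 fold change of mt-Nd6, which is read from the other strand of mitochondrial DNA, was 0.42 ± 0.16 (SE, adjusted p = 0.20 in limma). It rested on means of 122 reads in DMSO and 151 with thymol, against 43461 and 40161 for mt-Nd1. The log2 fold changes of mt-Nd1 and mt-Nd4 were 0.012 and 0.078. All 5 values were positive at the scaling used by the authors, with a median of 0.13, beside 0.013 for the nuclear subunits; the difference between these lists was not tested. DMSO replicate 6 was the lowest library for mt-Nd2, mt-Nd4, mt-Nd5 and mt-Nd6, at 12.38, 13.87, 9.95 and 3.54 log2 CPM. Without that library the median of the 5 was 0.095, and 0 of them had an unadjusted p-value under 0.05 in limma. Other alternatives, read for these genes after their values had been seen, gave calls. The gene mt-Nd2 passed with the replicate block (adjusted p = 0.035 in limma). The even-numbered libraries alone are only replicates 2, 4 and 6 of each group. In them mt-Nd2 rose by 0.22 (adjusted p = 0.00050 in limma) and mt-Nd4 by 0.19 (adjusted p = 0.0018). In the odd-numbered libraries alone their log2 fold changes were 0.051 and -0.035, and the difference between odd- and even-numbered libraries did not pass (unadjusted p = 0.056 and 0.042, adjusted p = 0.997 and 0.995 in limma). With quantile normalization mt-Nd1 was at -0.12 and mt-Nd4 at 0. That scaling gives the highest gene of each library the same value, so the 0 of mt-Nd4, the highest gene, was fixed in advance. The gene mt-Nd1, at percentile 99.9 of level in DMSO, is likewise tied to its rank among a few top genes. Without DMSO replicate 5, thymol replicate 3 or thymol replicate 6, mt-Nd1 was also below 0.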

How the data were processed

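The labels describe 12 QuantSeq 3′ libraries (75 ng of RNA, 20 PCR cycles). The authors aligned reads to GRCm38 with STAR 2.5.3, counted them with HTSeq 0.6.1, removed genes with few reads or no annotation, and scaled libraries by TMM; the deposited values are log2 CPM with a prior count. Whole reads were recovered from the log2 steps: below 200 reads, 100% of values came out whole to within 0.02. PCR reads are not independent molecules, so depth speaks of counting error only.

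Main test: limma 3.58.1 in R 4.3.3, on 2 groups with no covariate, using a mean-variance trend, two-sided, Benjamini-Hochberg over all 10697 genes, threshold 0.05. The procedure was checked on simulated data. Members and lists were chosen with earlier results of these data known. Genes were named by rule: all Ndufaf genes, 7 core subunits, any member past the threshold, the 3 largest positive and 3 largest negative subunits, and the highest and lowest subunit; 1 gene under this rule is counted in all totals but not reported here; others are named by order or range, after their values were seen. Members are described by counts and medians, with no test of the list. Alternatives were voom on recovered reads, other scalings, variance models, pseudocounts, filters and covariates, odd- or even-numbered libraries alone, and each library left out. Coordinates of genes are GENCODE vM21 (GRCm38). No protein sequences were used here.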

Additional observations from a re-analysis of the deposited data

Results flagged for a closer look

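In 98 groups of 6 libraries, 1 library stood away from the other 5 by Dixon's criterion (a gap to the nearest library that takes up most of the group's range) in 5 groups, and chance flags about 1 in 20 groups, here 4.9. DMSO replicate 6 was low for Ndufb5, a subunit of the distal membrane arm, at 6.33 log2 CPM with the nearest library at 6.65, and for Ndufs8 at 5.19 with the nearest at 5.66. Thymol replicate 1 was high for Ndufb7 at 7.10, with the nearest at 6.83, and for Ndufb9 at 7.51, with the nearest at 7.21, both of the distal membrane arm. DMSO replicate 2 was high for Ndufs6, of the N module, at 6.48 with the nearest at 6.22.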

How the results depend on the processing

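In limma, 0 Nduf genes passed the adjusted threshold in any of the 22 alternatives (10 settings and 12 fits that each left out 1 library), with 0 to 3 at an unadjusted p-value under 0.05 and a smallest adjusted p-value between 0.16 and 0.67. Over all genes, 57 instead of 238 passed with no mean-variance trend in the same 12 libraries. In the odd-numbered libraries alone 70 passed, in the even-numbered ones alone 167, and 172 to 270 with 1 library left out. The cause of these differences was not tested. With the replicate block 332 genes passed (104 higher, 228 lower) and again 0 Nduf genes. What remained in the same-numbered libraries once gene levels were taken out correlated at -0.048 to 0.27, and 1 of 6 correlated best with its own number. These are not correlations of the levels, which ran closely together in all 12 libraries. The labels do not say whether a shared number marks a pair or a batch, and 6 correlations cannot decide it. Some values changed sign, that of Ndufaf5 from -0.27: Ndufaf3 was -0.0068 with voom; the odd-numbered libraries gave -0.022 for Ndufaf2, -0.24 for Ndufaf3, 0.19 for Ndufaf4 and 0.11 for Ndufaf5; the even-numbered ones gave 0.0070 for Ndufs7 and -0.057 for Ndufv1. With 1 library left out, Ndufaf3 ran from -0.048 to 0.089, Ndufaf4 from -0.072 to 0.045, Ndufv1 from -0.018 to 0.052 and Ndufs7 from -0.12 to 0.0072. A filter on a mean level of at least 5 left 5394 genes and 38 Nduf genes. The median of the subunits ran from -0.015 to 0.038, and that of the assembly factors from -0.12 to -0.0015. Genes with few reads, such as Ndufaf6, Ndufs5 and Ndufs6b, had the widest intervals.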
